A study of Mus musculus with 36 samples.

Results

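Hearts labelled HRas-v12 transgenic were compared with one another here, since they differ widely in how far their expression departs from control hearts. The 11 arrays of this line, out of 36 in the series, were ranked by the signal of Timp1, a secreted inhibitor of matrix-degrading enzymes. The 4 arrays with the highest signal (high-Timp1 arrays) were set against the 4 with the lowest (low-Timp1 arrays), and 3 lay between (middle arrays). The arrays were chosen by a measured value, so the differences between these sets are a description of selected arrays and carry no test, and Timp1 itself is left out of the results.

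Each array measured the left ventricle of an adult mouse heart, 1 RNA sample on 1 Affymetrix mouse expression array. The mice, on a C57black background, carried a floxed HRas-v12 transgene under the α-myosin heavy chain promoter, which acts in heart muscle cells, together with Mer-Cre-Mer under the same promoter. Tamoxifen was given at 20 mg/kg on 3 consecutive days from 12 weeks of age. The labels place early hearts 4 to 7 days and late hearts 2 to 4 weeks after the first injection. Of the HRas-v12 arrays, 5 were early (2 from females, 3 from males) and 6 late (3 from each sex). Its controls were 3 male and 3 female arrays of littermates without transgenes, treated with tamoxifen as well and without a time in the labels. The other 19 arrays hold hearts with the same driver and a MKK3bE transgene (2 female early, 2 female late and 3 male late arrays) or a MKK7D transgene (3 female arrays at each time), and separate MKK7D controls (3 female arrays at each time). Whether each numbered array was a separate animal is not said in the labels, and no scan date or batch was used here.

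HRas-v12 is a form of the Ras switch protein that stays active and feeds the kinase cascade ending in ERK. ERK induces immediate early transcription factors, growth factors of the EGF family and its own feedback inhibitors. In stressed hearts, muscle cells lower the expression of channels and of the mitochondrial machinery that burns fatty acids, while fibroblasts lay down collagen and monocyte-derived macrophages enter the tissue. Timp1 is made by several of these cell types.

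The Timp1 signals, on the linear scale of the array software, were 88944, 63405 and 57548 in male early 1, 2 and 3 and 31494 in female early 1, the high-Timp1 arrays. Middle arrays were male late 3 at 10963, female late 3 at 9883 and female late 4 at 7823. Female late 2 at 3929, male late 1 at 1525, female early 3 at 1092 and male late 4 at 780.2 were the low-Timp1 arrays. At the borders of the ranking, 31494 stood next to 10963 and 7823 next to 3929. The 6 shared controls ran from 952.4 to 2992, so 3 of the low-Timp1 arrays lay within or below the control range. All high-Timp1 arrays were early and 3 of the low-Timp1 arrays were late. Ranking and time are thus mixed, and for that reason the early arrays (4 high against female early 3 alone) and the late arrays (3 middle against the 3 late low arrays) are also given apart. Both of these comparisons were made on arrays selected on Timp1 as well.

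The driver did not rank the arrays in the same order. The Mer domains come from the estrogen receptor, so the brightest Esr1 probe set can also read the RNA of Mer-Cre-Mer. Its signal was 12640, 12437 and 21173 in male early 1, 2 and 3 and 95274 in female early 1, against 293.8 to 7943 in the shared controls. Male late 4 had the highest Esr1 signal of the 11 arrays, 155949, and the lowest Timp1. Male late 3, in contrast, was at 1327, within the control range, and was first among the late arrays by Timp1. Female early 3 (687.6) and male late 1 (2915) were also within the control range, and both were low-Timp1 arrays. Over the 11 arrays r between log2 Esr1 and log2 Timp1 was 0.11 (Spearman -0.15), and it was -0.84 over the 8 arrays left when the 3 with Esr1 within the control range were set aside. The HRas-v12 RNA itself was not analysed here, so what each heart expressed of the transgene was not tested.

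The number of genes outside the control range followed the Timp1 order more closely. After a filter on dim probe sets, 12625 genes were followed on the log2(signal + 32) scale, each by its brightest probe set. In the high-Timp1 arrays, 1371 (male early 1), 1019 (male early 2), 1087 (male early 3) and 396 (female early 1) genes lay at least 2-fold outside the range of all 6 shared controls. Middle arrays had 1026 (male late 3), 359 (female late 3) and 271 (female late 4) such genes. The low-Timp1 arrays had 68, 56, 76 and 35, no more than a single control array showed against the other 5 (49 to 102). By this count the low-Timp1 arrays were not set apart from controls. The range of 5 controls can be narrower than that of 6, which can raise the control counts. Female late 2 had 47 genes above the controls, against 2 to 37 in single controls. Summed signals of 35 respiratory chain genes were 2595838 to 3498242 in the low-Timp1 arrays, below the controls at 3555111 to 4018147. By the count of genes outside the controls, male late 3 stood well above the other late arrays, with an Esr1 signal at control level.

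**Figure D1:**
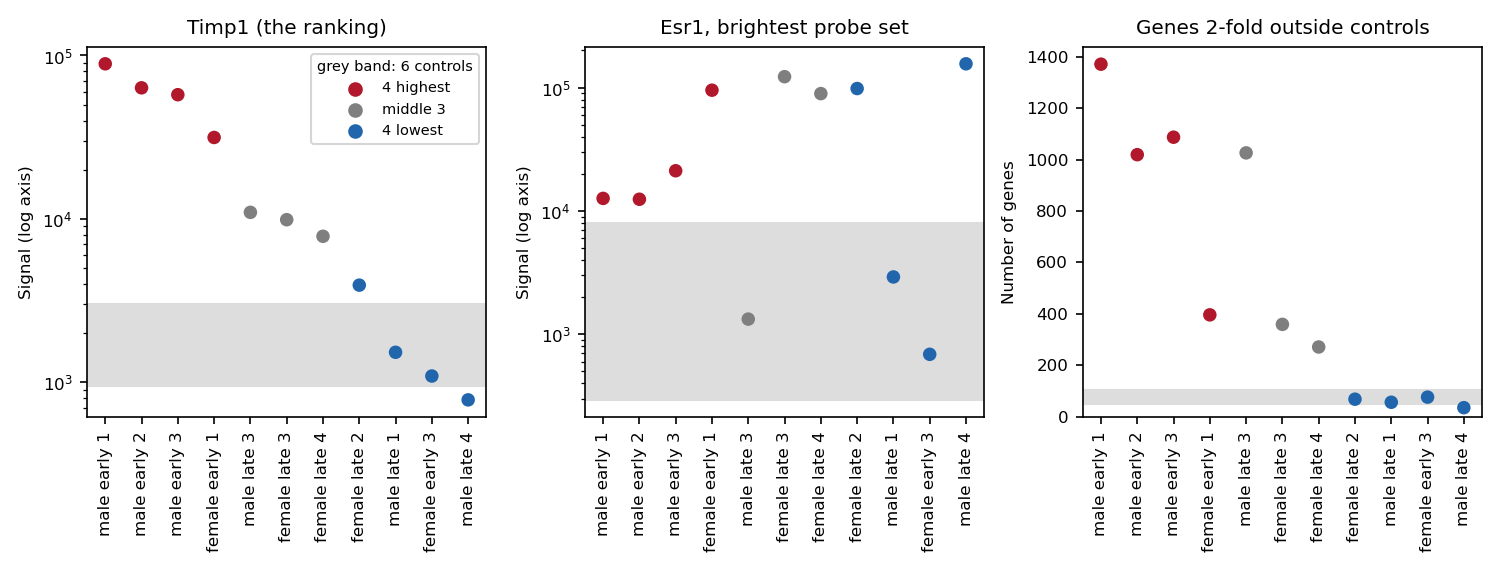
Timp1 signal, Esr1 signal (both on log axes) and the number of genes at least 2-fold outside the 6 shared controls, for the 11 arrays labelled HRas-v12 transgenic in order of falling Timp1. Points are single arrays and grey bands the range of the controls; Timp1 falls from 88944 to 780.2, while Esr1 is highest in the array with the lowest Timp1.

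The first principal component of the 11 arrays held 49.7% of their variance. It ran from 54.9 (male early 1) through 45.3, 39.0 and 12.1 in the other high-Timp1 arrays and 26.7, 1.31 and -3.27 in the middle arrays to -25.1, -47.3, -51.7 and -52.0 in the low-Timp1 arrays. Correlations across genes between pairs of arrays were 0.945 to 0.974 among high-Timp1 arrays and 0.951 to 0.968 among low-Timp1 arrays, but 0.842 to 0.951 between the sets. Low-Timp1 arrays correlated with shared controls at 0.95 to 0.969 and high-Timp1 arrays at 0.838 to 0.926. Between the sets, 699 genes were at least 2-fold higher in the high-Timp1 arrays and 735 at least 2-fold lower with no overlap of the 4 against 4 arrays, 5.54% and 5.82% of the genes tested. Of these, 140 and 111 differed at least 4-fold. At any fold, 1900 of the 12625 genes were higher and 2392 lower without overlap, the background for list counts given without a fold. The middle arrays fell between both means for 618 of the 699 and 671 of the 735 genes, at a median of 63.6% and 54.5% of the way from low to high. Within groups of the same sex and time, the median standard deviation over all genes was 0.306 on the log2 scale among HRas-v12 arrays and 0.235 among shared controls. For the genes apart by 2-fold it was 0.608 and 0.281, but these were picked for differing among the HRas-v12 arrays.

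Late arrays alone showed 463 genes at least 2-fold higher and 283 at least 2-fold lower without overlap, 3.67% and 2.24% of those tested. The early difference (4 against 1 array) and the late difference (3 against 3), which share no array, correlated at 0.689 across genes, which are not independent replicates. Over the 11 arrays, 1276 genes had r of at least 0.8 with Timp1 and 1446 of at most -0.8. Without the 2 arrays farthest from the median, male late 4 and male early 1, these counts were 1013 and 1151 genes. Within the 6 late arrays they were 1916 and 1582. The Timp1 values form 3 levels, which remain when those 2 arrays are left out. With fewer arrays a high r arises more easily by chance, so counts over unlike numbers of arrays cannot be compared.

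The same relation was tested where the ranking had no part, in the 25 arrays outside the HRas-v12 line. A slope on each array's own log2 Timp1 signal, with 9 group means, was fitted in limma and adjusted by Benjamini-Hochberg over all genes. It was called under an adjusted p of 0.05 in 387 genes with a positive slope (3.07%) and 335 with a negative one (2.65%), and 2505 genes had an unadjusted p under that threshold. Of the 699 genes higher in high-Timp1 arrays, 160 were called with a positive and 0 with a negative slope. Of the 735 lower genes, 138 were called negative and 3 positive. The median slope was 0.22 for the first set and -0.17 for the second, in log2 units per doubling of Timp1, against 0.0 over all genes.

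These calls rested on the late MKK7D controls, whose Timp1 spread was wide. Replicate 9 was at 5242, replicate 8 at 2959 and replicate 10 at 1064, and replicates 8 and 9 had Esr1 signals of 106402 and 91291 although labelled controls, with 953.3 in replicate 10. Without replicate 10, limma called 3 genes, without replicate 9 it called 106, and without all 3 arrays 0 (1093 genes at an unadjusted p under 0.05). With transgenic arrays alone 0 genes were called and 1032 had such an unadjusted p. Each slope call below holds for the fit over all 25 arrays with this limit, and the same slope without the late MKK7D controls is given for main genes.

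Many matrix genes were higher in high-Timp1 arrays. Of 28 fibrillar and structural matrix genes tested, 16 were at least 2-fold higher and 2 lower without overlap, with a median log2 difference of 1.62 (all genes: -0.08). The median was 2.26 among early and 1.24 among late arrays, with 11 of the 28 apart by 2-fold late. Outside the line 20 of the 28 had a called positive slope and 0 a negative one (median slope 0.46). The 2 lower genes, named after their values were seen, were Fbln1 and Efemp1, elastic fibre-associated glycoproteins, at -2.1 and -1.65.

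Tnc encodes tenascin-C, a matricellular glycoprotein of wounds and remodelling tissue. Its signals were 65879, 21079, 51129 and 24118 in the high-Timp1 arrays (in the order of the ranking, as for all genes here), 3069, 5782 and 3382 in the middle and 1722, 554.1, 396.1 and 428.8 in the low-Timp1 arrays. The 6 shared controls had 130.4 at the lowest, 309 at the median and 871.1 at the highest. High, middle and low arrays did not overlap, and female late 2 alone among low arrays exceeded the controls. The difference was 54.0-fold (5.75 on the log2 scale), 6.40 among early and 2.34 among late arrays, and r with Timp1 was 0.98 over 11 arrays and 0.97 in the 6 late arrays. Outside the line the Tnc slope was 1.05 (SE 0.20, limma adjusted p = 0.00584), and 0.65 without the late MKK7D controls (adjusted p = 0.408).

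Collagen chains differed less steeply. Col1a1, the main fibrillar collagen chain, read 79731, 62701, 61186 and 52976 in high-Timp1 arrays, 22670.4, 67601 and 64243 in middle arrays and 29940.4, 7018, 7500 and 6568 in low arrays (controls 4963 to 13045). Middle females reached the level of the high-Timp1 arrays, and female late 2 was the one low array above controls. The log2 difference was 2.65, and late arrays overlapped (2.05). Col5a2 (2.86), Col8a1 (3.00) and Ltbp2, a latent TGF-β binding protein of elastic fibres (2.75), had the largest differences of the list. Their slopes outside the line were 0.84, 0.93 and 1.02.

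Postn, which encodes periostin, a product of activated fibroblasts, ran at 107361, 104927, 113376 and 86332 in high-Timp1 arrays and 75840.3, 85371 and 100108 in middle arrays. Low-Timp1 arrays were at 38341, 12749, 6797 and 8601 and controls at 5706 to 15048. Female late 2 was again between. The log2 difference was 2.97, and 2.42 within late arrays. Its slope outside the line was 1.05 (SE 0.13, limma adjusted p = 0.000735), 0.75 without the late MKK7D controls (adjusted p = 0.0689). Of the 14 matricellular genes tested, 8 were at least 2-fold higher without overlap and 0 lower (median 2.01, late 0.93), and 9 had a called positive slope.

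Lox, the enzyme that crosslinks collagen and elastin, was 19.8-fold higher. High-Timp1 arrays read 38173, 32483, 20712 and 9242, middle arrays 4650, 2636 and 3424, and low arrays 1119, 983.9, 1400 and 904.3, all 4 within the control range of 784.2 to 1729. The middle arrays lay much nearer to the low than to the high arrays, as 1.77 within late against 3.95 within early arrays also shows. Of 13 crosslinking and processing genes tested, 6 were 2-fold higher without overlap, among them the related oxidases Loxl1 (1.49) and Loxl3 (1.5) and Pcolce (1.53), an enhancer of procollagen cleavage.

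Cthrc1, a secreted protein of activated fibroblasts, was high in the early high-Timp1 arrays alone. Its signals were 21991, 9673, 13922 and 6383 in the high-Timp1 arrays, against 512.3 to 1191 in the middle and 420.7 to 984.4 in the low arrays, which overlap. The log2 difference was 4.24 early and 0.09 late, and r with Timp1 was 0.88 over 11 and 0.33 over the 6 late arrays.

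Among proteases and their inhibitors, 5 of 17 were 2-fold higher. Adamts1 and Adamts4, which cleave proteoglycans, differed by 2.07 and 2.06, and the membrane proteases Adam8 and Adam12 by 1.84 and 2.34. Adam12 stood at -0.07 among late arrays. Of 16 TGF-β genes, 6 were higher without overlap (1900 of all 12625 genes), and 2 of these at least 2-fold, the ligands Tgfb2 (2.29) and Tgfb3 (1.09). The median of the list was 0.53. Smad6, an inhibitor of the pathway, stood at -0.93 and the feedback regulator Pmepa1 at 0.94, with further Pmepa1 probe sets at 0.43 and 0.08. Late arrays showed 7 of the 16 TGF-β genes at least 2-fold higher without overlap and 0 lower (median 0.70), against 3.67% of all genes tested.

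Fibroblast markers did not differ to the same extent as matrix genes. Of 19 tested, 4 were 2-fold higher (Meox1 2.54, S100a4 2.43, Tagln 1.20 and, named after its value was seen, Pdpn 1.07) and 1 lower, Gsn. Tcf21, Pdgfra and Dpt, markers of resting fibroblasts named after their values were seen, differed by 0.39, 0.51 and -0.33, with overlap. Among late arrays they were higher without overlap, by 0.73, 0.85 and 0.43. The median of the list was 0.61, and 0.81 among late arrays, where 5 of 19 were at least 2-fold higher. The summed signal of the 19 markers was 372733 to 405000 in high-Timp1, 479411 to 576254 in middle, 268882 to 405544 in low-Timp1 and 270634 to 410336 in control arrays. High and low arrays thus overlapped in a sum that includes Gsn. Gsn ran against most of the list, at 26878 to 58129 in high-Timp1 and 103615 to 124318 in low-Timp1 arrays, and the sum without it was not taken. The part of fibroblast number in the matrix differences was not tested, and in whole tissue more cells of a type and more RNA per cell cannot be told apart.

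ERK feedback and target genes differed both among early and among late arrays. Of 16 tested, 9 were 2-fold higher without overlap and 0 lower (median 1.64, early 1.97), and 11 were so among late arrays (1.43). Outside the line 1 of the 16 had a called slope, Dusp6 at 0.34 (chosen after its value was seen).

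Dusp5, a nuclear phosphatase of ERK, had signals of 19833, 14912, 16107 and 19153 in high-Timp1 arrays, 5834, 7318 and 11471 in middle arrays and 3284, 472.7, 571.3 and 137.7 in low arrays, with controls at 182.1 to 1243. No set overlapped another, and female late 2 alone of the low arrays lay above controls. The difference was 27.1-fold, with log2 differences of 4.85 early and 3.59 late. Its slope outside the line was -0.62 (SE 0.38, limma adjusted p = 0.394).

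Spred1, which restrains Ras to Raf signalling, and Phlda1, an ERK-induced gene, were 5.24-fold and 6.86-fold higher. Spred1 read 20121, 15605, 22762 and 19268 in high-Timp1 and 16595, 16730 and 17830.2 in middle arrays, which overlap, against 7414, 3092, 3058 and 2524 in low arrays (controls 2353 to 3217). Phlda1 was at 40882 to 48684 in high-Timp1, 27408 to 29491 in middle and 4443 to 15789 in low arrays. In both genes the 3 lowest arrays lay within the control range. One of the 6 further Spred1 probe sets differed with the opposite sign (-0.06).

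Myc, the growth-promoting transcription factor, was 5.00-fold higher and its late difference was 1.83. Of the 16 immediate early genes tested, 7 were 2-fold higher without overlap (median 1.02, late 0.96) and 6 had a called positive slope outside the line. Egr1 had 48179, 53242, 51686 and 57846 in high-Timp1 arrays, 24472, 44888 and 51369 in middle arrays and 22706, 5002, 4171 and 3279 in low arrays, against 3506 to 6315 in controls. Female late 2 was the one low array above controls. Egr2, Egr3 and Fos differed by 3.27, 3.36 and 2.38, but a further Egr3 probe set by 0.49.

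Ligands of the EGF receptor differed unequally. Ereg and Hbegf were apart, while Tgfa (0.04) and Btc (0.69), named after their values were seen, overlapped. Ereg, which encodes epiregulin, read 21548, 29296, 16151 and 8588 in high-Timp1, 23023, 4471 and 5909 in middle and 3460.0, 459.2, 94.4 and 176.7 in low arrays (controls 124.8 to 653.2). Male late 3 exceeded 3 of the high-Timp1 arrays. The difference was 37.4-fold, and 3.58 on the log2 scale within late arrays. Hbegf, the heparin-binding ligand, was 8.29-fold higher, at 59679 to 85126 in high-Timp1, 26681 to 37711 in middle and 4883 to 18894 in low arrays. The Hbegf slope outside the line was 0.68 (limma adjusted p = 0.0385), and 0.25 without the late MKK7D controls. In the list of EGF ligands and integrins, 8 of 15 genes were 2-fold higher and 1 lower, Itgb6 (-2.52). Itgb6 encodes an integrin chain of epithelia.

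**Figure D2:**
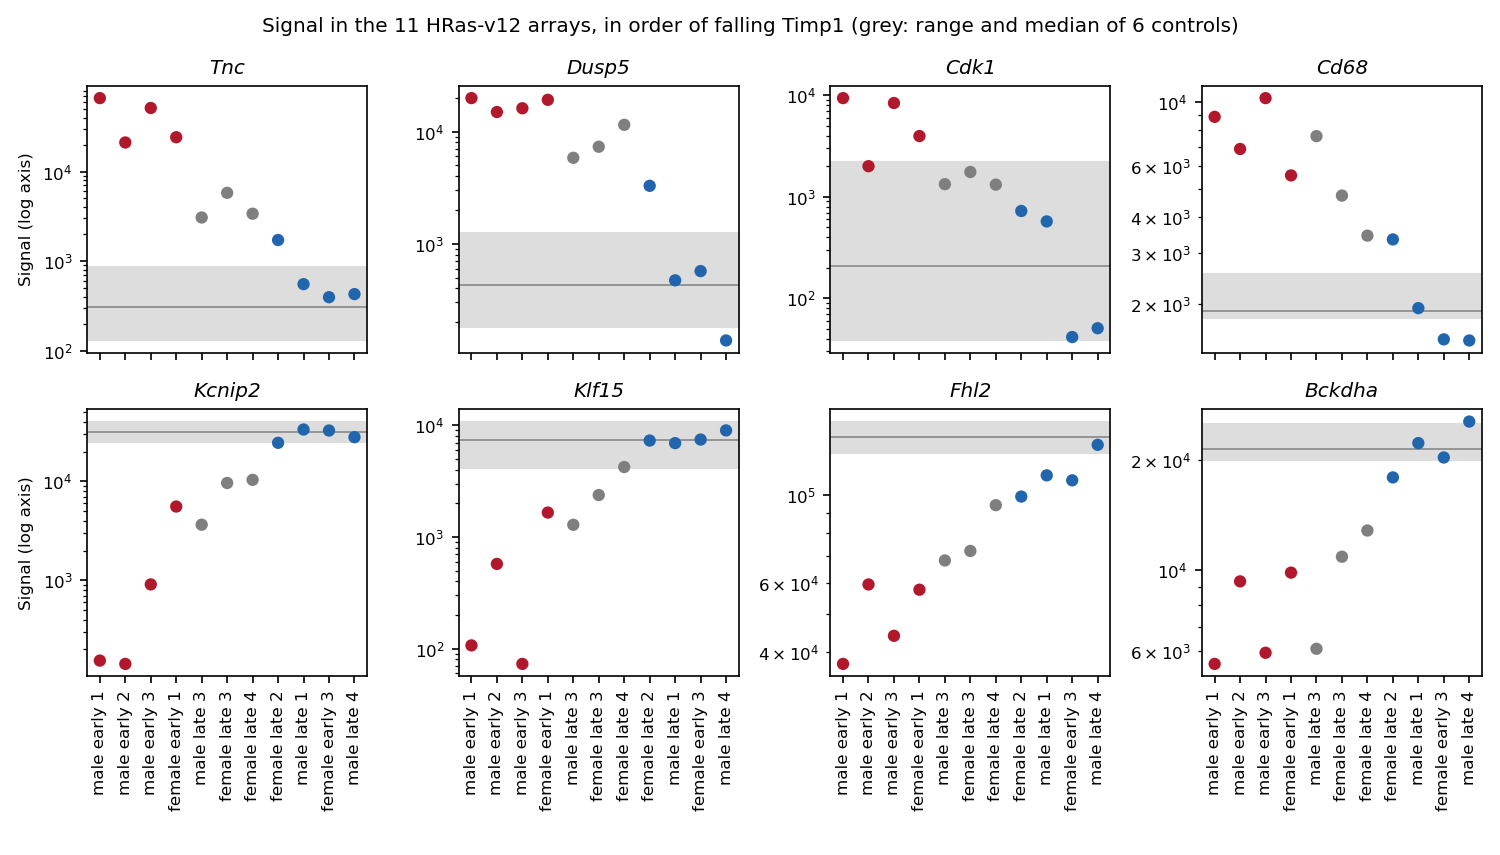
Signals (log axis) of 8 genes in the 11 HRas-v12 arrays in order of falling Timp1, with red points for high-Timp1, grey for middle and blue for low-Timp1 arrays. The grey band and line give the range and median of 6 shared controls; Tnc falls from 65879 in male early 1 to 428.8 in male late 4, and Kcnip2 runs the other way.

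Cell cycle genes were higher in high-Timp1 arrays nearly throughout the list. Of 27 tested, 25 were 2-fold higher without overlap and 1, Cenpf (-1.34, chosen after its value was seen), was lower, with a median of 2.16. The median was 2.49 among early and 0.63 among late arrays, where 9 of 27 were 2-fold apart. Outside the line 6 had a called positive and 1 a called negative slope. Their summed signal was 93609 to 218640 in high-Timp1, 69395 to 75222 in middle, 43678 to 54875 in low and 37631 to 68493 in control arrays, so the high-Timp1 arrays and, narrowly, the middle arrays lay above the controls.

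Cdk1, the kinase that drives entry into mitosis, had signals of 9389, 2004, 8399 and 3969 in high-Timp1, 1332, 1757 and 1318 in middle and 725.2, 572.1, 41.5 and 50.7 in low arrays. The controls had 38.4 at the lowest, 206.3 at the median and 2214 at the highest, so male early 2 and all middle arrays lay within their range. The difference was 22-fold, and the late difference 2.15 on the log2 scale. Outside the line the Cdk1 slope was 1.53 (SE 0.27, limma adjusted p = 0.00405) and 2.07 without the late MKK7D controls (adjusted p = 0.0689). Mki67, the proliferation marker, read 13149, 3558, 11854 and 5125 in high-Timp1 arrays, 2328, 2279 and 1756 in middle and 722.7, 810.8, 224.5 and 198.2 in low arrays (controls 35.1 to 2186). Male early 2 was the lowest high-Timp1 array for Cdk1, Mki67 and Anln, a ring protein of cell division (15.5-fold). Mcm5, a part of the replicative helicase, was 10.1-fold and Asf1b, a histone chaperone of S phase, 16.6-fold higher. Which cell types carried these transcripts was not tested.

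Because the cell cycle genes differed together, their promoters were searched for the cell cycle homology motif TTTGAA on both strands in the 250 bases before the start given by RefSeq (GRCm38.p6). It stood in 9 of the 25 cell cycle promoters in the table, 36.0%, and in 13.0% of the 10149 promoters of tested genes. TGANTCA, the AP-1 motif, stood in 0 of the 25 and in 5.7% of all. TTTGAA also stood in 4 of 18 matrix (22.2%), 4 of 20 macrophage marker (20.0%) and 1 of 25 respiratory chain promoters (4.0%). Cdk1 (minus strand, chr10:69352913-69353162) and Mki67 (minus strand, chr7:135716380-135716629) hold 2 matches each, in capitals below, 5′ to 3′ on the strand of the gene. A match is a description of the letters and shows no binding.
Cdk1: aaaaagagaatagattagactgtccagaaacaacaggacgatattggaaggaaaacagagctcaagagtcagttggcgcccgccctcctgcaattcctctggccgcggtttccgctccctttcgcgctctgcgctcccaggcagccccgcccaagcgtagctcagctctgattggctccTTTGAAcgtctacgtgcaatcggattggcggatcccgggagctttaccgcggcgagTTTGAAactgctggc
Mki67: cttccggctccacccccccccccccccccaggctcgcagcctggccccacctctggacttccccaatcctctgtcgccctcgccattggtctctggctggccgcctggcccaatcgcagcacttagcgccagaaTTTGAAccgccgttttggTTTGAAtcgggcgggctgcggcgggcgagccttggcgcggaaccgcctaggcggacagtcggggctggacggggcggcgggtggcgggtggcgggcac

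Inhibitors of the cell cycle went both ways. Cdkn1a, the p21 inhibitor, was 6.33-fold higher, at 11089 to 24995 in high-Timp1, 5015 to 7741 in middle and 1318 to 4204 in low arrays. Its slope outside the line was 0.76 (SE 0.15, limma adjusted p = 0.00651; 0.0689 without the late MKK7D controls). Cdkn1c, the p57 inhibitor, had 624.9, 855.4, 245.0 and 638.4 in high-Timp1 arrays and 2825 to 3152 in low arrays, 5.26-fold lower, with the middle arrays between at 982.5 to 1864. Gadd45g, a stress-induced growth arrest gene, differed by 2.44 and its relative Gadd45a by -1.01.

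Macrophage markers were higher among both early and late arrays. Of 30 tested, 24 were 2-fold higher in high-Timp1 arrays without overlap and 0 lower (median 1.52, early 1.84), and 21 were 2-fold higher among late arrays (1.38). Outside the line 2 had a called slope. Their summed signal was 308260 to 451097 in high-Timp1, 294794 to 578346 in middle, 144560 to 230660 in low and 168590 to 218839 in control arrays. No marker was at 0, the lowest signal being 156.0. Cd68, a lysosomal protein of macrophages, read 8888, 6882, 10317 and 5577 in high-Timp1, 7623, 4751 and 3453 in middle and 3352, 1940, 1513 and 1500 in low arrays, with controls at 1795 to 2547. Male late 3 was as high as the high-Timp1 arrays and female late 2 was the one low array above controls. Fcgr3 (2.11) and Fcer1g (2.1), parts of the antibody receptors, and the integrin Itgam (2.09) followed. Cd163 and Lyve1, markers of resident macrophages named after their values were seen, differed by -0.23 and -0.12 among late arrays, unlike most of the list.

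Chemokines that draw monocytes differed as well. Ccl2 read 8391, 12906, 10350 and 4835 in high-Timp1, 4656, 1990 and 1665 in middle and 1150, 600.3, 31.7 and 714.1 in low arrays (controls 178.7 to 844), a 19.8-fold difference. Ccl12, which acts on the same receptor, was 20.7-fold higher, and male late 3 at 8178 was as high as the high-Timp1 arrays. Ccl9 (2.43), Ccl7 (2.25) and Ccl6 (1.93) were also apart. In the list, 6 of 15 tested were 2-fold higher. Ptgs2, the inducible cyclooxygenase, was 23.3-fold higher. Of lymphocyte and neutrophil markers only 3 each passed the filter, and none of these was 2-fold apart.

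Natriuretic peptides and other fetal genes overlapped more. Nppb, the B-type natriuretic peptide, was 2.26-fold higher at 97873 to 124012 in high-Timp1 against 31110.3 to 74486 in low arrays, but controls reached 111940. Nppa, the atrial peptide, read 144378, 159364, 140520.0 and 112461 in high-Timp1, 153065, 133961 and 180392 in middle and 116826, 43402, 16959 and 43086 in low arrays. Female late 2 overlapped the high-Timp1 arrays, and controls ran from 3428 to 116006. Myh7, the slow myosin, differed by 0.80 with overlap, and Acta1, skeletal actin, by -0.89. Acta1 was higher in the late low arrays, at 58130.2 to 62740, than in the middle arrays at 9115 to 40988. Rcan1, a calcineurin target, was 2.75-fold higher, with a slope outside the line of 0.64 (limma adjusted p = 0.00531; 0.356 without the late MKK7D controls). Fhl2, a LIM protein of heart muscle, read 37357, 59363, 44008 and 57574 in high-Timp1, 68273, 72169 and 94261 in middle and 99106, 112136, 108941 and 133988 in low arrays, with controls from 127722 to 153468. The signal of Fhl2 kept the order of the sets without overlap, with 3 low arrays below the control range.

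The list of sarcomere genes had 4 of 22 at least 2-fold lower and 12 lower without overlap at any fold (2392 of all 12625 genes), with a median of -0.47. Main contractile genes, named after their values were seen, differed by less than 2-fold. Myh6 (-0.38), Tnnt2 (-0.24), Tnnc1 (-0.23) and Tpm1 (-0.27) overlapped. Myl2 (-0.59), Myl3 (-0.54), Tnni3 (-0.54), Mybpc3 (-0.39) and Ttn (-0.37) were lower without overlap. Tcap, the titin cap at the Z disc, was 5.56-fold lower, at 8389, 19534, 17634 and 57404 in high-Timp1, 59556, 87466 and 102999 in middle and 99661, 124545, 103958 and 123394 in low arrays. Its late difference was -0.50, with overlap. Myot, another Z disc protein, was 6.51-fold lower and its late difference was -2.71. Outside the line its slope was positive (0.56, limma adjusted p = 0.0483), opposite to the HRas-v12 arrays.

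Kcnip2 had the largest negative difference of the genes tested without overlap. It encodes a subunit of the transient outward potassium channel, which ends the first phase of the cardiac action potential. Signals were 154.2, 142.8, 908.7 and 5568 in high-Timp1, 3649, 9634 and 10367 in middle and 24543, 33437, 32678 and 27979 in low arrays. Controls were at 24765 at the lowest, 31225 at the median and 40256 at the highest, so low arrays sat within or next to the control range and the middle arrays clearly below it. The difference was 45.8-fold, -5.67 on the log2 scale early and -1.99 late. The Kcnip2 slope outside the line was -0.41 (SE 0.13, limma adjusted p = 0.0696). Further Kcnip2 probe sets differed by -4.62 and -1.32. Of 18 channel genes tested, 5 were 2-fold lower without overlap and 1 was higher, Kcne1 (1.98). Kcnv2 (-2.24), a silent potassium channel subunit, and Scn4b (-2.02), a sodium channel subunit, had late differences of -1.78 and -2.36.

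Calcium handling genes had 4 of 17 at least 2-fold lower (median -0.60). Dhrs7c, a protein of the sarcoplasmic reticulum, read 103.3, 704.9, 386.8 and 2037 in high-Timp1, 359.0, 5902 and 6261 in middle and 12049, 12536, 12233 and 19234 in low arrays, with controls of 9646 to 19206. Male late 3 lay with the high-Timp1 arrays. The difference was 25.4-fold. Hrc (-1.68) and Trdn (-1.37), partners of the calcium release channel, and Cacna1c (-1.36), the L-type channel pore, were also apart, and one of the 5 further Trdn probe sets had the opposite sign (0.55).

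Heart muscle transcription factors and clock output genes had 8 of 26 at least 2-fold lower and 0 higher (median -0.55, late -0.36). Klf15, a regulator of fuel use in heart muscle, had 106.9, 573.6, 73.0 and 1653 in high-Timp1, 1285, 2372 and 4227 in middle and 7298, 6917, 7448 and 8992 in low arrays (controls 4119 to 10794). Male late 3 overlapped the high-Timp1 arrays, female late 3 lay between the sets, and female late 4 reached the control range. The difference was 21.9-fold, and -1.70 late. Esrrg, a nuclear receptor of mitochondrial genes, differed by -1.72, and the clock-controlled genes Hlf and Ciart by -2.22 and -2.18. The hour of harvest was not used here. The cardiac factors Nkx2-5, Tbx5 and Gata4, named after their values were seen, differed by -0.12, 0.23 and 0.10.

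Fatty acid oxidation had the largest median difference of the 4 metabolic lists. Of 28 tested, 15 were 2-fold lower without overlap and 1 higher, with a median of -1.08 (early -1.0, late -0.85), and 16 had a called negative slope outside the line, 0 a positive one. Their summed signal was 777434 to 1091857 in high-Timp1, 911521 to 1306115 in middle, 1415566 to 1888481 in low and 1797351 to 2088947 in control arrays. Pdk2, a kinase that limits pyruvate oxidation, read 7311, 9918, 9590.1 and 19720 in high-Timp1, 9435, 25623 and 20711 in middle and 31057, 41201, 47717 and 40032 in low arrays. Male late 3 fell among the high-Timp1 arrays. Its slope outside the line was -0.36 (SE 0.06, limma adjusted p = 0.00423), -0.32 without the late MKK7D controls (adjusted p = 0.27). Eci1, an enzyme of unsaturated fatty acids (-1.65), and Ucp3, an uncoupling protein (-2.16), had slopes of -0.43 and -0.75. The higher gene was Angptl4, a secreted inhibitor of lipoprotein lipase, at 7.28-fold.

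The citric acid cycle and branched-chain list was lower in 24 of 26 genes without overlap (2392 of all 12625 genes), 5 of them at least 2-fold. Its median was -0.74, and -0.63 late. Outside the line 17 had a called negative slope and 0 a positive one. Bckdha, which breaks down branched-chain keto acids, had 5537, 9302, 5938 and 9828 in high-Timp1, 6089, 10862 and 12808 in middle and 17881, 22187, 20269 and 25404 in low arrays, with controls of 19982 to 25053. The low arrays sat near the control range, and male late 3 with the high-Timp1 arrays. Its slope was -0.42 (SE 0.07, limma adjusted p = 0.00328), -0.26 without the late MKK7D controls (adjusted p = 0.32). Among 35 genes of the respiratory chain, 17 were lower without overlap and 1 at least 2-fold, Ndufs7 of complex I (-1.06). The median was -0.54, and -0.57 late, with 17 called negative slopes.

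Glucose metabolism genes were mixed, with 3 of 23 higher and 6 lower. Pdk3, a kinase of pyruvate dehydrogenase, was 6.51-fold and the lactate exporter Slc16a3 3.69-fold higher. Fbp2, the muscle fructose bisphosphatase, was 6.57-fold and Pfkfb2, the cardiac regulator of glycolysis, 4.00-fold lower. Pdk3 was as high in the middle arrays (2346 to 4199) as in high-Timp1 arrays (1504 to 3123), against 93.8 to 879.8 in low arrays.

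**Figure D3:**
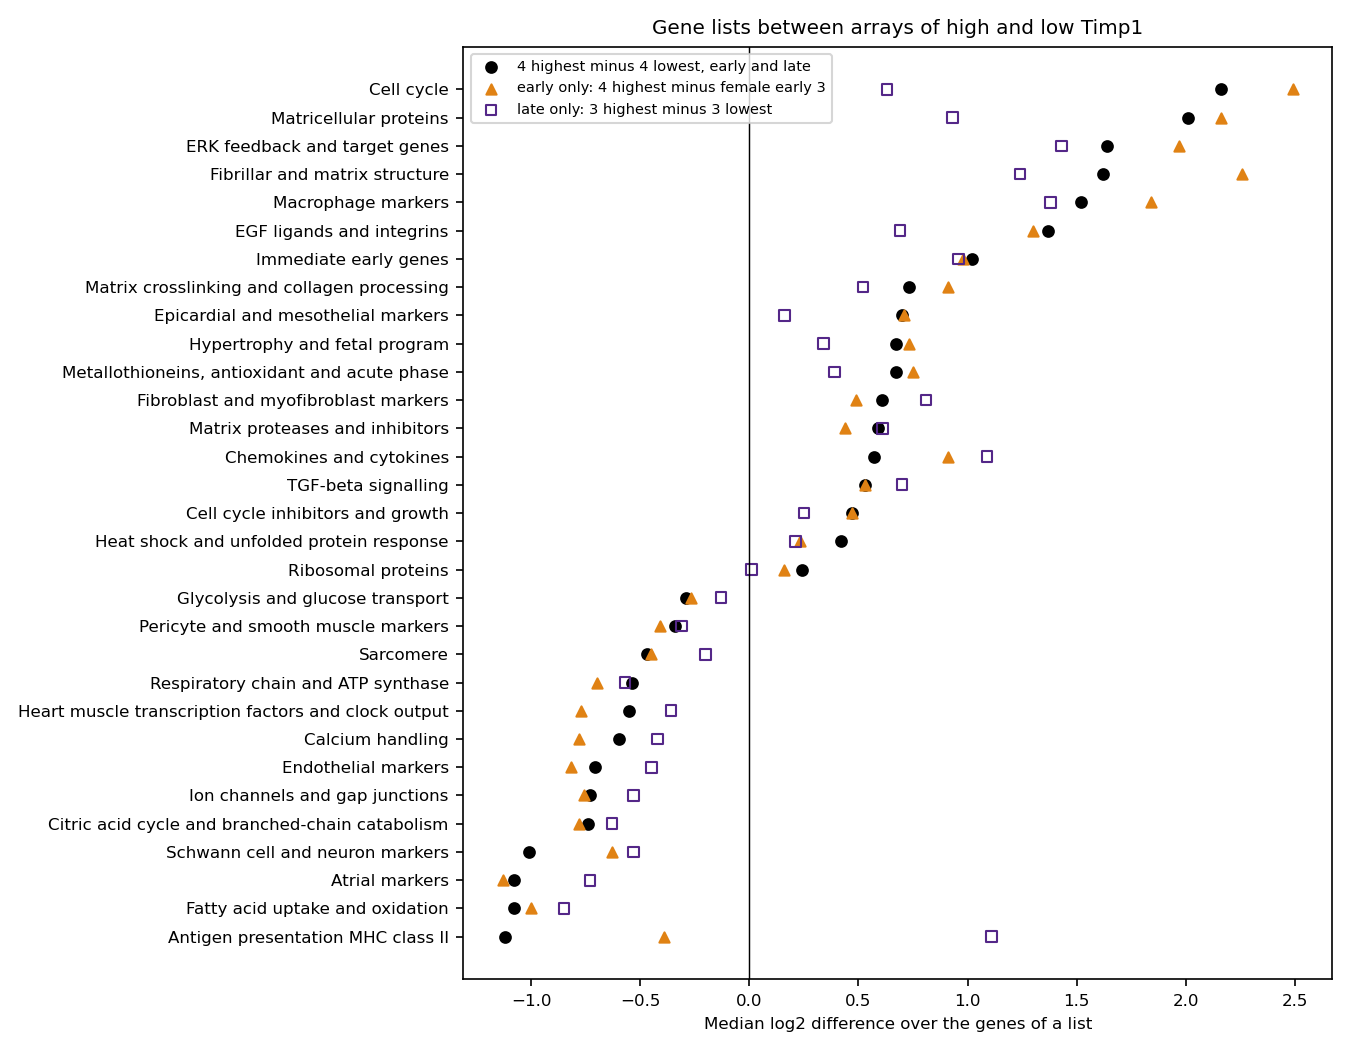
Median log2 difference over the tested genes of each list with at least 5 of them. Black points compare the 4 high-Timp1 with the 4 low-Timp1 arrays, triangles the same early arrays with female early 3, and squares the 3 middle with the 3 late low arrays; cell cycle genes stand at 2.16, 2.49 and 0.63 and antigen presentation genes at -1.12, -0.39 and 1.11.

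Several genes set apart the early high-Timp1 arrays but not the late ones, and time was tested by label. Late and early HRas-v12 arrays were compared in limma over all 36 arrays with 13 group means, averaging the female and the male difference. Of the genes tested, 873 were higher late (6.91%) and 589 lower (4.67%). The early arrays hold 4 high-Timp1 arrays, so time and Timp1 remain mixed in this test, and 186 of the 699 higher genes were called lower late and 290 of the 735 lower genes higher late. Lcn2, Mt2, Gsn, Xirp1, Tcap and Kcnip2 below were named for differing between high-Timp1 and low-Timp1 arrays. Their time p-values rest on the same arrays and are no separate support. Limma called 338 genes without female early 1, 2269 without female early 3, 857 without male early 1, 888 without female late 2, 864 without male late 1, 2715 without male late 3 and 49 when it took the spread from the HRas-v12 arrays alone.

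Lcn2, lipocalin-2, an acute phase protein, read 11412, 67087, 11003 and 22427 in high-Timp1, 2184, 319.0 and 1017 in middle and 1571, 800.9, 4478 and 379.2 in low arrays (controls 332.6 to 1387). Female early 3 was the highest of the low arrays. Lcn2 fell by 4.03 on the log2 scale from early to late (SE 0.56, limma adjusted p = 7.21e-05, at most 0.00296 with any 1 HRas-v12 array left out and 0.0497 with the HRas-v12 arrays alone). Mt2, a metallothionein, was at 46755 to 79146 in high-Timp1 and at 4231 to 17271 in the other 7 arrays, with a late difference of 0.19. Its late minus early change was -1.90 (SE 0.39, adjusted p = 0.00255, 0.072 without female early 1). Hmox1, heme oxygenase, differed by 2.47 and Manf, a protein of the stressed endoplasmic reticulum, by 1.56. Of 21 metallothionein, antioxidant and acute phase genes, 9 were 2-fold higher without overlap, 1 of 21 was so late, and 7 were called lower late. Heat shock and unfolded protein genes had 3 of 25 higher.

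Gsn, which encodes gelsolin, an actin-severing protein, stood at 26878, 40109, 30337 and 58129 in high-Timp1 arrays. All other arrays were between 103615 and 124318, within the control range of 95242 to 145885. Gsn rose by 1.07 from early to late (SE 0.13, limma adjusted p = 1.02e-05, at most 0.000158 with any 1 array left out). Xirp1, an actin-binding protein of the intercalated disc, was the opposite, at 26593 to 53284 in high-Timp1 and 14761 to 21810 in the rest, and fell by 0.91 (SE 0.14, adjusted p = 0.000132, at most 0.00388). Tcap rose by 1.54 (SE 0.19, adjusted p = 1.17e-05, at most 0.000546, and 0.0537 with HRas-v12 arrays alone). Kcnip2 rose by 2.80 (SE 0.49, adjusted p = 0.000693, at most 0.0201, and 0.108 with HRas-v12 arrays alone). Female early 3 lay near the late arrays in Gsn (124318), Xirp1 (21810), Tcap (103958) and Kcnip2 (32678), apart from the high-Timp1 arrays. These changes therefore cannot be told apart from the ranking. Wif1, a secreted Wnt inhibitor, had 167.6, 2.2, 81.3 and 418.2 in high-Timp1 arrays and 906.6 to 1689 in the other 7, a late difference of -0.03.

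Genes of antigen presentation on MHC class II did not follow the macrophage markers. Of 6 tested, 0 were apart between high-Timp1 and low-Timp1 arrays, the median difference was -1.12, and among late arrays it was 1.11. The genes named here were chosen after their values were seen. H2-Ab1, a class II chain, read 1779, 1158, 1731 and 2082 in high-Timp1 and 22867, 5713 and 4618 in middle arrays. In low arrays it was 6345, 5710 and 3964 late but 2055 in female early 3, while controls ran from 2718 to 6708. Female early 3 is the only early array with low Timp1, so time and Timp1 cannot be told apart here. In H2-Ab1 all 5 early arrays were below the controls, and the late arrays were within or above. The other genes differed in this. Female early 1 lay within the controls for H2-Aa (3913), H2-Eb1 (5278) and Cd74 (8523). Female early 3 did so for H2-Eb1 (4774) and Cd74 (6267). Cd74, the invariant chain, had 2952 to 8523 in high-Timp1 arrays, 57166, 26501 and 19274 in the middle and 25875, 9945, 6267 and 8014 in low arrays (controls 6162 to 23467).

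From early to late, limma called 4 of the 6 genes higher. H2-Ab1 rose by 1.89 (SE 0.36, adjusted p = 0.00147, at most 0.0143 with any 1 HRas-v12 array left out), H2-Aa by 2.32 (adjusted p = 0.00862, at most 0.0412), Cd74 by 1.92 (adjusted p = 0.0102, at most 0.045) and H2-Eb1 by 1.74 (adjusted p = 0.0141, 0.0675 without female early 1). With the spread of the HRas-v12 arrays alone the adjusted p was 0.0738 for H2-Ab1, 0.062 for H2-Aa, 0.091 for Cd74 and 0.0947 for H2-Eb1. H2-DMa, a class II chaperone, differed by 0.20 between times (adjusted p = 0.743) and, like the macrophage markers, had a positive difference between high-Timp1 and low-Timp1 arrays (1.05, with overlap). Summed signals of the 6 genes were 10797 to 21624 in high-Timp1, 53618 to 159102 in middle, 17283 to 67907 in low and 17766 to 69158 in control arrays.

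**Figure D4:**
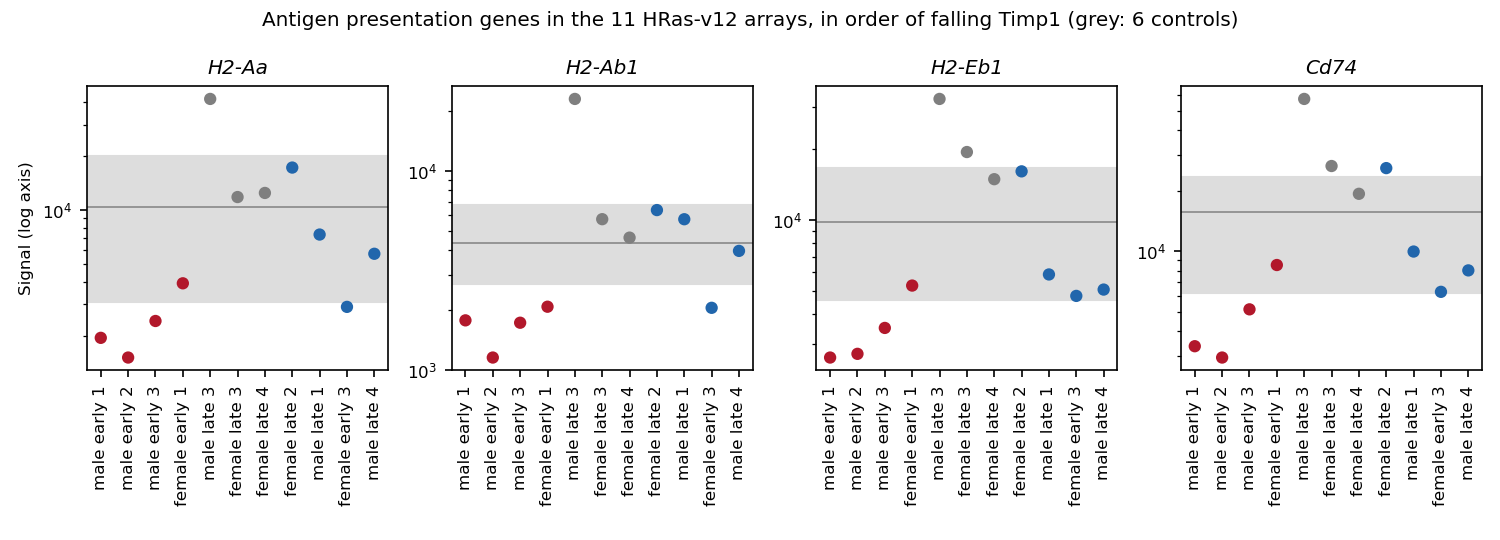
Signals (log axis) of 4 antigen presentation genes in the 11 HRas-v12 arrays in order of falling Timp1, with red, grey and blue points for high, middle and low Timp1 and a grey band and line for the range and median of 6 shared controls. H2-Ab1 is at 1158 to 2082 in the 5 early arrays and at 22867 in male late 3.

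Endothelial markers were lower in high-Timp1 arrays, 16 of 20 without overlap (2392 of all 12625 genes) and 4 at least 2-fold (median -0.71, late -0.45). Summed signals were 141558 to 182178 in high-Timp1, 178667 to 204225 in middle, 245908 to 301114 in low and 244333 to 338334 in control arrays. The endothelial receptor Tie1 read 2169, 2326, 2315 and 3001 in high-Timp1, 2741, 3480.1 and 3777 in middle and 5965, 6869, 4675 and 5662 in low arrays, with controls of 3220.0 to 7051. High-Timp1 arrays lay below the controls and the low arrays within them. Aqp1, a water channel (-1.20), Cdh5, the adhesion protein of endothelial junctions (-1.17), and Kdr, a VEGF receptor (-1.17), were also lower without overlap. In Kdr, however, female late 2 (3693) and male late 4 (4659) lay below the lowest control (4936), as female late 2 did in Aqp1 (29171 against 30165). Outside the line 0 of 20 had a called slope. Of 11 pericyte and smooth muscle markers, 3 were 2-fold lower, Abcc9 (-1.61), Myh11 (-1.39) and Vtn (-1.25), and Cspg4, the NG2 proteoglycan, was higher (1.93).

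Aldh1a2, which makes retinoic acid and marks the epicardium, was 23.7-fold higher, at 23721, 8435, 16955 and 16211 in high-Timp1, 1197, 3689 and 1952 in middle and 1215, 906.9, 632.4 and 194.4 in low arrays. Of the 8 epicardial genes tested, 3 were higher without overlap (1900 of all 12625 genes). These were Aldh1a2, the 1 at least 2-fold, Tbx18 (0.87) and Krt8 (0.77), while Upk3b was lower (-1.55). The median was 0.70, and 0.16 among late arrays. Summed epicardial signals were 15735 to 34233 in high-Timp1 and 5046 to 8915 in low arrays, and Aldh1a2 is part of that sum. Of 7 atrial markers tested, 1 was at least 2-fold lower without overlap, Stard10 (-1.08). The atrial median was -1.08, and -0.73 among late arrays. Summed atrial signals overlapped (128579 to 185685 against 88648 to 175858), but Nppa, at 112461 to 159364, made up most of the sum in high-Timp1 arrays. Ribosomal protein genes had 0 of 19 at least 2-fold apart and a median of 0.24, and 0.01 late. Further lower genes among the 12 largest were Efnb3, an ephrin ligand (21.7-fold), Asb14 and Asb15, ankyrin repeat proteins of muscle (13.8-fold and 9.85-fold), Ces1d, a lipase (10.5-fold), Fn3k, a deglycating kinase (10.3-fold), and Rpl3l, the muscle form of ribosomal protein L3 (9.89-fold). Lrtm1 (10.4-fold) and Ttll1 (10.1-fold) completed them, though a further Ttll1 probe set differed by -0.95 on the log2 scale. Efnb3 had r of -0.95 over the 11 arrays and -0.98 over the late ones.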

How the data were processed

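The deposited table gives a linear signal intensity per probe set and array, made by the authors with MAS5 per the submitters' processing notes (version not given in the sources used here). Each array had been scaled to 1 mean of 2500, with 2% trimmed at each end. Signals ran from 0.4 to 271532.1 and array medians from 593.5 to 798.6. The number of arrays limits the precision.

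Probe sets with 1 gene symbol in the platform annotation (34958 of 45101, 932 with several and 9211 with none) were named, 34754 through the current symbol. The upper 60% by mean log2(signal + 32), a mean of at least 8.802, were kept, with the brightest probe set per gene. Differences on this scale understate changes of dim genes. Hras and Map2k7 were not analysed here.

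Arrays labelled HRas-v12 transgenic were ranked by the 1 Timp1 probe set of the rule. The ranking, the gene lists and the genes named were chosen with earlier results of these data known. Named genes are the 12 largest differences each way without overlap, up to 4 members of each list, and 8 fixed genes. Further probe sets of 52 named genes numbered 85, of which 4 had the opposite sign.

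The tests are limma 3.58.1 (R 4.3.3, eBayes with trend), with Benjamini-Hochberg adjustment over 12625 genes. Every adjusted p printed comes from limma. The slope fit had 15 residual and 5.7 prior degrees of freedom, the time fit 23 and 4.61. Both were tested on simulated data. P-values measure only the spread between arrays, which may be technical. Alternatives were the added constant, quantile normalization, the filter, the size of the sets, time, and left-out arrays.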

Additional observations from a re-analysis of the deposited data

Results flagged for a closer look

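Within the 5 early HRas-v12 arrays, the Esr1 signal of female early 1, 95273.7, lay far above the others (687.6 to 21173) on the linear scale. The gap was larger than chance gives in about 1 of 20 groups. Esr1 signal, genes outside controls, principal component score and median signal were each checked in early and late arrays, so more than 1 group was searched. The gap on the log2 scale was not taken. Male early 1, 2 and 3 had Timp1 signals above that of female early 1 with lower Esr1 signals.

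Male late 3 had 1026 genes at least 2-fold outside the shared controls, while the other 5 late HRas-v12 arrays had 35 to 359. Its Esr1 signal of 1327 was within the control range. Chance flags about 1 in 20 such groups.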

How the results depend on the processing

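Between high-Timp1 and low-Timp1 arrays, 1434 genes were apart by at least 2-fold. The count was 711 with 5 against 5 arrays, 2147 with 3 against 3 and 1310 to 1842 with 1 array left out. Late arrays alone (3 against 3) gave 746, 62.1% of them higher, against 48.7%. Early arrays alone (4 against 1, an alternative added after seeing the data) gave 2206. Fewer arrays separate more easily, so counts from sets of unlike size cannot be compared. The count was 1466 with a smaller and 1211 with a larger added constant, 1447 after quantile normalization and 1711 without the filter. Without the low-Esr1 arrays (4 against 2) it was 1462. In late arrays alone the differences of Adam12 (-0.07), Gsn (0.07), Xirp1 (-0.04), Krt8 (-0.19) and Rps18 (-0.06) and the median of the antigen presentation list (1.11) were reversed, Rpl11 was at 0.0, and Esr1, which overlapped between the sets, went from 0.82 to -0.53. Esr1 was also negative with 5 against 5 arrays (-0.55), without female early 3 (-0.58) and without the low-Esr1 arrays. The cause was not tested.

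Slopes on Timp1 outside the line were called in 722 genes, in 467 after quantile normalization (455 shared), in 1200 without MKK7D control female early 1, in 0 of the transgenic arrays alone (1032 at an unadjusted p under 0.05), in 0 without the late MKK7D controls (added after seeing the data; 1093 at an unadjusted p under 0.05), and in 3 to 1200 genes with 1 array left out. A replicate block could not be fitted there, since 1 number alone recurs within a line and sex.

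Late against early HRas-v12 hearts gave 1462 calls in limma, 49 with HRas-v12 arrays alone, 3136 without the 3 arrays of low Esr1 signal, and 338 to 2715 with 1 array left out. With the replicate block the count was 1353. Replicate numbers did not pair the arrays: deviations of same-numbered arrays correlated at -0.343, -0.168 and 0.0236. No paired analysis was possible for the 4 against 4 arrays, since the sets were ranked by a signal.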

Other observations

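Male late 3 stood apart from both other middle arrays in some genes, chosen here after their values were seen. S100a4 was at 26902 there and at 6409 and 6055 in female late 3 and 4, and Tagln, a smooth muscle and myofibroblast gene, at 30442 against 8466 and 4786. Itgam read 3994 against 642.7 and 834.9, Fcgr3 10209 against 2161 and 2554, and H2-Aa 41747 against 11844 and 12484. Lower there were Aqp1, at 6401 against 24019 and 28999, Dhrs7c, at 359.0 against 5902 and 6261, and Mylk4, a heart muscle kinase, at 2649 against 13551 and 18124. The middle arrays are 1 male and 2 females, so sex and array cannot be told apart in these values.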
